A study of Gallus gallus with 9 samples.

Results

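In the chick mesentery, the genes described here differed at most 1.5 times in mean level between the start and the middle of gut looping. Once looping was complete, they stood at least 4-fold higher. They numbered 61 of the 14172 genes that passed a filter on low counts, and of 24356 genes in the count table. A gene belonged to the group when its mean level at embryonic day 16 (E16) was at least 5 CPM (counts of the gene per mega-count, M, of the library) and at least 4 times both its mean at E12 and its mean at E8, and when its E12 mean lay within 1.5 times of its E8 mean in either direction. The stage means that chose the genes come from the same libraries that are described below, so no test of E16 against E12 or E8 is given for them, and their differences between stages are a description.

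The dorsal mesentery of wild type White Leghorn chick embryos was sampled at E8, when looping starts, at E12, when it is in progress, and at E16, when it has ended. Each stage had 3 libraries of poly(A) RNA, and each library pooled tissue of 3 embryos from which the gut tube and the superior mesenteric artery had been dissected away. No stage carried a treatment or an engineered allele, and age was the only labelled difference between the groups. The pools mean that variation between single embryos cannot be seen.

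The mesentery is a thin double sheet that ties the gut to the body wall and carries its vessels, lymphatics and nerves between surface layers of mesothelium. Its growth lags behind that of the intestinal tube, and the tension that results bends the tube into loops. In bulk tissue of this kind, a change in the share of cells of 1 type and a change in RNA per cell cannot be told apart, and this holds for every difference between stages below.

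The deposited files identify genes by Ensembl ID and do not pair the IDs with names. The RefSeq gene table of 25635 chicken genes used here held no Ensembl IDs, so none of the 24356 IDs could be matched (0 matches). The roles of the genes, their positions and their sequences were therefore not analysed here, and neither was a check of the tissue against marker genes. The 2 members with the highest E16 means are given by ID, and the others by their rank of E16 mean among the 61.

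Gene counts per library, in mega-counts (M), averaged 27.0 M ± 2.81 for E8, 30.1 M ± 0.50 for E12 and 24.3 M ± 1.94 for E16 (SD over 3 libraries). CPM values were scaled with TMM factors, which align the libraries on their typical genes. A member had a median of 542 reads in an E16 library and of 96 reads in an E8 or E12 library. The lowest count of any member in an E16 library was 61 reads, and 2 members had fewer than 10 reads in at least 1 earlier library, so that counting error limits their early levels most.

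Summed over the 61 genes, the level at E8 was 395, 551 and 370 CPM in replicates 1, 2 and 3. At E12 it was 495, 497 and 395 CPM, and at E16 it was 3509, 4296 and 2848 CPM. The E8 and E12 libraries overlapped, and the lowest E16 library lay above all 6 of them. The stage means of this sum were 439 CPM ± 98.0 for E8, 462 CPM ± 58.3 for E12 and 3551 CPM ± 725 for E16 (SD over 3 libraries). Together the 61 genes took 0.0485% ± 0.0117 of the reads counted in genes during E8, 0.0430% ± 0.0069 during E12 and 0.348% ± 0.0753 during E16 (SD over 3 libraries). Without the most abundant member the sums were 388 CPM ± 31.9, 390 CPM ± 37.7 and 2876 CPM ± 496. Every member met the same limits on its stage means, so these sums had to keep the pattern and nothing is read from them.

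**Figure D1:**
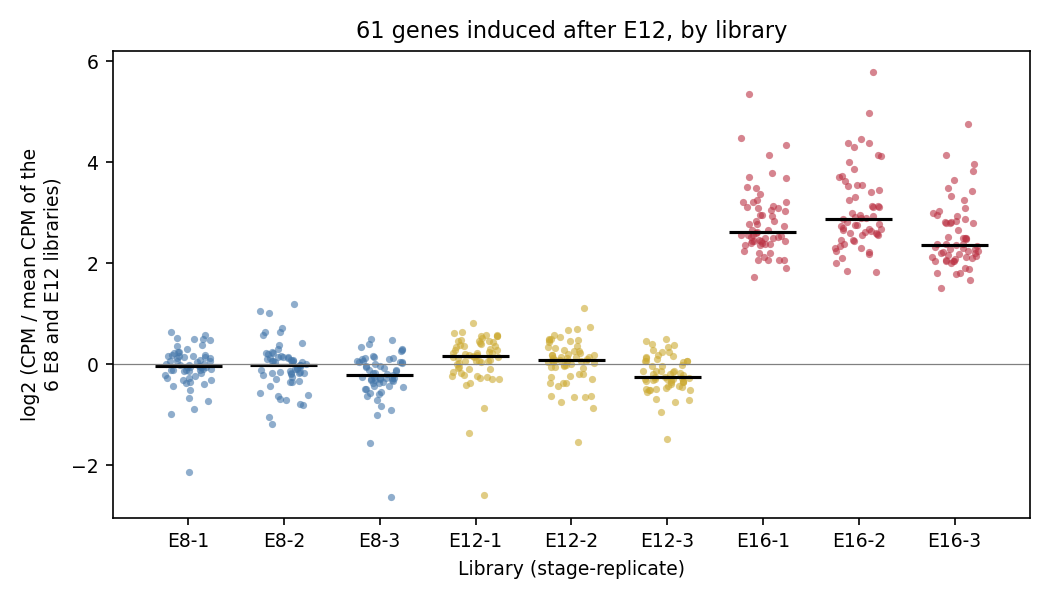
Level of each of the 61 genes in each of the 9 libraries, as log2 of its CPM over the mean CPM of the 6 E8 and E12 libraries; points are genes, coloured by stage, and black bars are medians over genes. The medians lie between -0.25 and 0.16 in the earlier libraries and at 2.61, 2.87 and 2.36 in E16 replicates 1, 2 and 3.

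Set against its own mean over the 6 earlier libraries, the median member stood 6.11-fold higher in E16 replicate 1, 7.33-fold higher in replicate 2 and 5.14-fold higher in replicate 3. In the earlier libraries the same median ranged from 0.84 in E12 replicate 3 to 1.12 in E12 replicate 1. All 3 E16 libraries lay above all 6 earlier libraries for 61 of the 61 members. Over all 14172 filtered genes this held for 16.2%, and since the E16 means chose the members nothing is read from the comparison. By edgeR's quasi-likelihood test, 26.9% of the 15506 genes tested were called higher at E16 than at E12, and 22.9% higher than at E8, at a Benjamini-Hochberg adjusted p under 0.05. The calls against E12 fell from 4167 to 1192 genes when the percentage of reads outside annotated features was a covariate. That percentage was lower in every E12 library than in any E8 or E16 library, so it and stage cannot be fully told apart.

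The members spanned a wide range of abundance. Their E16 means ran from 5.02 to 675 CPM with a median of 22.9 CPM, while the medians of their E8 and E12 means were 3.06 and 3.76 CPM. At E16, 15 members had means of 5 to 10 CPM, 30 of 10 to 50 CPM, 7 of 50 to 100 CPM and 9 above 100 CPM. The group therefore held both scarce and abundant transcripts. CPM is not corrected for transcript length, and these levels do not rank the genes by molecules.

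Few of the 61 were close to silent before E16. Only 4 had both earlier means under 1 CPM, 17 had a larger earlier mean of 1 to 2 CPM, 28 of 2 to 10 CPM and 12 of at least 10 CPM. The median fold of E16 over the larger earlier mean was 8.22 in the first of these classes and 5.53, 5.23 and 5.43 in the other three. The limit of 5 CPM at E16 forces a fold above 5 in the first class, so its higher median is not a result. For most members, then, E16 brought a higher level of a transcript that was already measured at E8.

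Over all members that fold ran from 4.01 to 35.8, with a median of 5.34 and quartiles of 4.59 and 8.30. It lay between 4 and 5 for 20 members, between 5 and 8 for 25, between 8 and 16 for 12, and at 16 or more for 4. The 2 members nearest to the limit of 4 had folds of 4.01 and 4.02, and the 2 genes that missed it most narrowly had folds of 3.90 and 3.88. At the limit of 5 CPM the nearest members stood at 5.02 and 5.04 CPM and the nearest genes outside at 4.91 and 4.61 CPM. The group is a stretch of a continuous range and has no gap at its edges.

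The steepest difference belonged to the member of rank 7. In replicates 1, 2 and 3 it measured 2.74, 3.14 and 3.29 CPM at E8. It measured 5.25, 3.95 and 3.14 CPM at E12, and then 147, 198 and 96.9 CPM at E16. Its E16 mean was 35.8 times the larger earlier mean, and its lowest E16 library was 18.5 times its highest earlier one. The member of rank 18 stood at 1.63, 1.95 and 1.65 CPM at E8, at 2.11, 3.38 and 1.41 CPM at E12 and at 41.1, 63.2 and 35.8 CPM at E16, a fold of 20.3. Both had E8 and E12 libraries that overlapped, and in both the second E16 library was the highest and the third the lowest. Neither met the rule without E12 replicate 3, and each was kept in 8 of the 9 repeats that left out 1 library.

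The member of rank 4 combined a large fold with high abundance. It stood at 16.0, 11.4 and 10.3 CPM at E8, at 9.42, 13.1 and 9.18 CPM at E12 and at 203, 241 and 164 CPM at E16, a fold of 16.1. The member of rank 54, with a fold of 16.8, was among the scarcest, with E8 values of 0.57, 0.43 and 0.34 CPM, E12 values of 0.07, 0.87 and 0.14 CPM and E16 values of 8.94, 7.15 and 6.30 CPM. Its values at E12 rest on few reads and differ more from each other than the E8 values do. Every earlier value was under 1 CPM, so this gene passed the filter on low counts only through the E16 libraries. It was kept in 5 of the 9 repeats that left out 1 library, and lost whenever an E16 library was left out. With total counts only and with stage medians it was lost as well. Before TMM scaling, the members of ranks 51, 58 and 59 also reached 1 CPM in fewer than 3 earlier libraries. They too needed the E16 libraries to pass the filter.

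At the other end, the clearance between stages was narrowest for the scarcest member. The member of rank 61 had 5.14, 7.15 and 2.76 CPM at E16 against up to 1.56 CPM in the earlier libraries, so that its lowest E16 library was 1.78 times its highest earlier one. The next lowest ratios were 2.02 and 2.13, at ranks 59 and 52. For 60 of the 61 the ratio was at least 2, against 2.72% of all filtered genes, in a contrast that the rule used. It was at least 4 for 21 members, and its median was 3.60. The share of all filtered genes with a ratio of at least 4 was not counted, so nothing is read from the 21.

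ENSGALG00000026736 was the most abundant member at E16. Its level was 14.02, 128 and 9.99 CPM in E8 replicates 1, 2 and 3. At E12 it was 78.8, 89.7 and 48.1 CPM, and by E16 it was 699.7, 894 and 430 CPM. The E16 libraries were above all others, but the second E8 library exceeded every E12 library while the other E8 libraries lay below all of them. Its means were 50.7 CPM ± 67.1 for E8, 72.2 CPM ± 21.6 for E12 and 675 CPM ± 233 for E16 (SD over 3 libraries), which gave a fold of 9.34 over E12 and an E12 mean of 1.42 times the E8 mean. Without E8 replicate 2 the E8 mean was 12.0 CPM and the E12 mean was 6.01 times that, so the gene no longer met the rule. It was also lost without E12 replicate 3, with stage medians in place of means and with no filter on low counts, and it was kept in 7 of the 9 repeats that left out 1 library.

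ENSGALG00000041344, the member of rank 2, was among the steadiest within E16. In replicates 1, 2 and 3 it measured 44.8, 43.1 and 45.5 CPM at E8. The E12 values were 34.9, 43.4 and 33.9 CPM, and those of E16 were 315, 318 and 292 CPM. The highest E16 library was 1.09 times the lowest, the smallest such ratio among the 61, though the member of rank 12 also rounded to 1.09. The means were 44.4 CPM ± 1.3, 37.4 CPM ± 5.24 and 308 CPM ± 14.1 (SD, n = 3 each), with E16 at 6.94 times E8 and 8.25 times E12. This gene met the rule whichever library was left out.

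**Figure D2:**
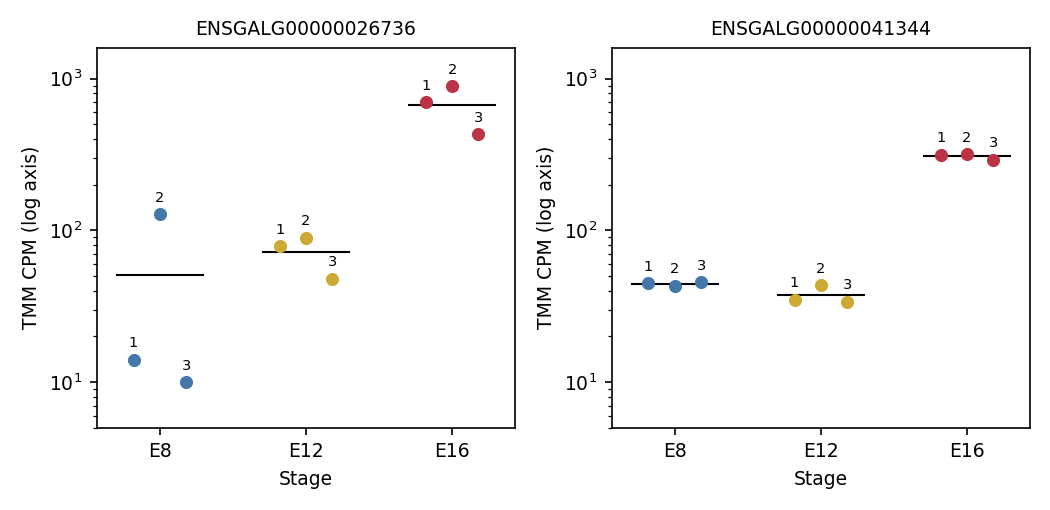
TMM-scaled CPM, on a log axis, of the 2 members with the highest E16 means in each library; points are libraries labelled by replicate number, and bars are means of 3 libraries. In ENSGALG00000026736 the second E8 library stands at 128 CPM, above all 3 E12 libraries, whereas the E8 libraries of ENSGALG00000041344 lie between 43.1 and 45.5 CPM.

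E8 replicate 2 also stood apart in other members. It was at least 2 times both other E8 libraries in 4 of the 61 genes (6.56%), against 2.24% of the 14111 filtered genes that are not members. Neither other E8 library stood apart in this way in any of the 61, against 0.19% (replicate 1) and 0.10% (replicate 3) of the 14111. Besides ENSGALG00000026736, the 4 were the member of rank 3, at 11.5, 52.1 and 11.4 CPM, that of rank 31, at 1.63, 5.29 and 0.88 CPM, and that of rank 35, at 2.09, 5.95 and 2.74 CPM in E8 replicates 1, 2 and 3. The E16 values of the member of rank 3 were 235, 301 and 256 CPM, and those of ranks 31 and 35 were 22.2, 28.6 and 18.03 CPM and 16.0, 20.8 and 13.55 CPM. The rule used the E8 mean, to which this library adds, and none of the 4 met the rule without it. Nothing is therefore read from the difference in shares, and what set this library apart was not tested.

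Between E8 and E12 the mean of each member differed by at most 1.5 times, as the rule required. The ratio of the E12 to the E8 mean ran from 0.69 to 1.49 with a median of 1.09, and 40 members had the higher mean at E12 against 21 at E8. For 14 members the means lay within 1.1 times of each other. The E8 and E12 libraries did not overlap for 6 members, 3 of them higher and 3 lower at E12, where 62.5% of all filtered genes did not overlap. This contrast was part of the rule, so the low count is not a result. With total counts in place of TMM the members' median log2 ratio of E12 to E8 changed sign, from 0.13 to -0.11. The median over all filtered genes moved with it, from -0.01 to -0.26. With DESeq2 size factors the medians were 0.16 and 0.01. The sign of the members' median thus depends on the scaling, while it lay above that of all filtered genes under each of them. The share of all filtered genes with the higher mean at E12 was not counted, so nothing is read from the 40.

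The 61 were part of a larger set of 148 genes that met the level and fold limits at E16. In 80 of these (54.1%) the E12 mean was already more than 1.5 times the E8 mean, in 61 (41.2%) it was flat, and in 7 (4.73%) it was lower by more than 1.5 times. Over all filtered genes the E12 mean lay within 1.5 times of the E8 mean for 55.1%. The split depends on where the limit is drawn, since 84 of the 148 were flat when the E12 mean could differ up to 2 times from the E8 mean. The members closest to the boundary had E12 and E8 means that differed 1.49-fold and 1.48-fold, and the nearest genes outside it 1.57-fold each.

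The same limits were turned to the other stages as a description of scale. With the other 2 stages flat, 31 genes were high at E8 alone and 1 gene at E12 alone, against 61 at E16 alone. In the opposite direction, where the 2 flat stages both had at least 5 CPM, 34 genes were low at E16 alone, 49 at E8 alone and 18 at E12 alone. These counts were not compared by a test.

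**Figure D3:**
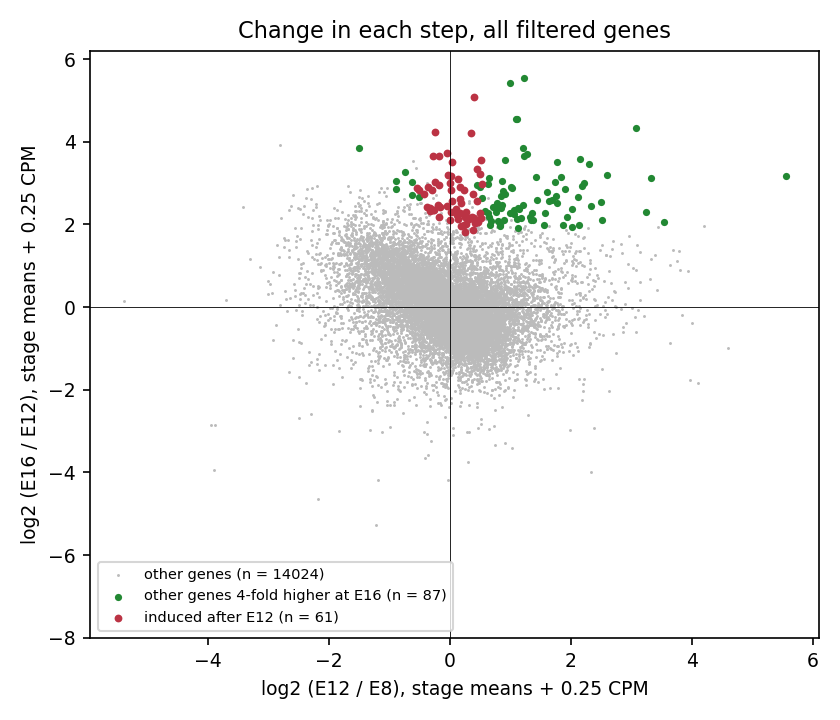
Log2 ratio of the E12 to the E8 mean (horizontal) and of the E16 to the E12 mean (vertical), each mean with 0.25 CPM added, for all 14172 filtered genes; each point is a gene. The 61 members (red) sit in a narrow band around 0 on the horizontal axis, and the other 87 genes at least 4-fold higher at E16 (green) lie mostly to its right.

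The order of the 3 E16 libraries was not used by the rule beyond their mean. E16 replicate 2 was the highest of the 3 for 43 members, replicate 1 for 13 and replicate 3 for 5. Replicate 3 was the lowest for 49 members, and 38 followed the order 2, 1, 3. The mean of log2(CPM + 1) over the 61 was 4.81, 5.04 and 4.56 in replicates 1, 2 and 3. The order 2, 1, 3 was not counted in other genes, so nothing is read from the 38 members.

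Which replicate was highest or lowest was also counted in other genes. The second replicate was highest for 70.5% of the members, for 58.6% of the other 87 genes at least 4-fold higher at E16 and for 40.5% of the 11115 other genes whose E16 means lay in the members' range. The median log2 ratio of replicate 2 to replicate 3 was 0.56 in the members (quartiles 0.20 and 0.81), 0.40 in the 87 genes (0.02 and 0.68) and 0.04 in the 11115 (-0.18 and 0.28). The third replicate was the lowest for 80.3%, 56.3% and 41.2% of these sets. A further 65 genes were at least 4-fold lower at E16 than at both earlier stages, with at least 5 CPM at both. Replicate 2 was the highest for 61.5% of these 65 and replicate 3 the lowest for 24.6%. Their median log2 ratio of replicate 2 to replicate 3 was 0.39 (quartiles -0.15 and 0.90). A high replicate 2 was thus also common among genes that were lower at E16. Genes are not replicates of a condition, so these are values without a test, and nothing is called particular to the members.

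The E16 pools differed in library measures as well. Replicate 2 had the most gene counts, at 26.5 M against 23.3 M in replicate 1 and 22.96 M in replicate 3. Reads outside every annotated feature made up 20.2%, 19.6% and 18.3% of all reads in replicates 1, 2 and 3. The part of these measures in the order of the pools was not tested. With DESeq2 size factors replicate 2 was highest for 43 members and replicate 3 lowest for 47. With total counts the numbers were 43 and 49. The TMM factors of replicates 1, 2 and 3 were 0.983, 0.988 and 0.962, so total counts could change these numbers little.

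**Figure D4:**
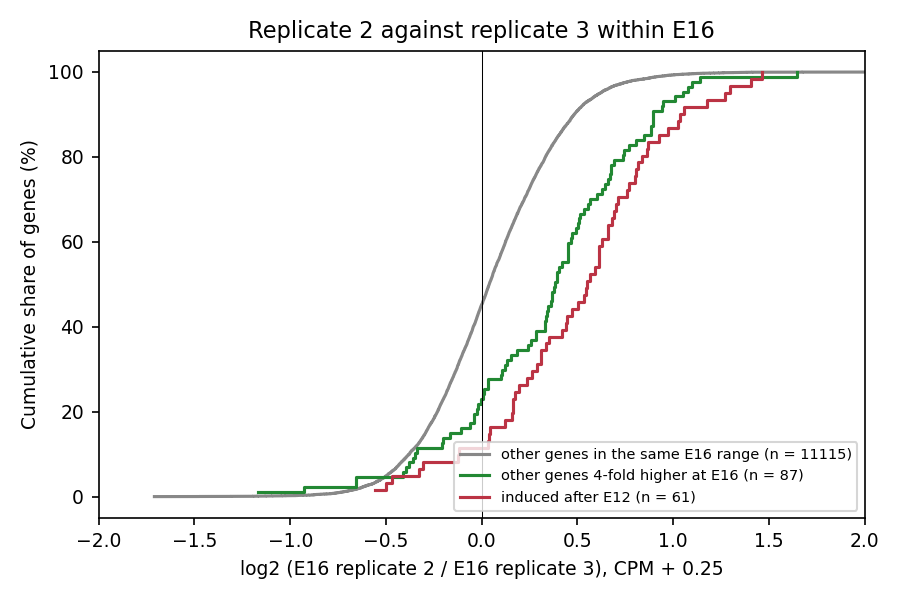
Cumulative share of genes (%) by the log2 ratio of E16 replicate 2 to replicate 3, with 0.25 CPM added to each; lines are the 61 members (red), the other 87 genes at least 4-fold higher at E16 (green) and 11115 other genes in the members' E16 range (grey). The red line is shifted to the right, with its median near 0.56 against 0.40 for the green line and 0.04 for the grey line.

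The highest E16 library was between 1.09 and 2.78 times the lowest for single members, with a median of 1.51. The largest ratio belonged to the member of rank 23, at 28.3, 61.6 and 22.2 CPM in E16 replicates 1, 2 and 3. It was the only member in which an E16 library was at least 2 times both others. Of the 14111 filtered genes that are not members, this held for 0.14%, 0.66% and 0.15% in replicates 1, 2 and 3. Nothing is read from a single member. The members of ranks 59 and 15 followed with ratios of 2.67 and 2.66.

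Expressed as a coefficient of variation, the median spread of the members among the E16 libraries was 20.5%. It was 11.2% for the 5711 other genes whose E16 means lay between the members' quartiles, and 20.2% for the other 87 genes at least 4-fold higher at E16. For the 65 genes at least 4-fold lower at E16 it was 26.5%. The E16 means of these same libraries chose the members, and the part of that choice in their spread was not tested. At E8 and E12 the median coefficient of the members was 20.1% and 24.4%. The 11115 other genes had 8.23% and 15.6% there, but the members' early levels were lower than theirs, and the part of counting error in the difference was not tested.

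At E12 the third replicate was the lowest for 59.0% of the members and for 31.3% of the other filtered genes. The rule used the E12 mean, and 16 members were lost without this library, so nothing is read from the difference. Reads that fell outside annotated features made up 16.6%, 11.03% and 13.5% in E12 replicates 1, 2 and 3, against 18.3% to 20.4% in the E8 and E16 libraries. The part of this measure in the members' E12 levels was not tested.

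To see which members rest on single libraries, the rule was applied again without each library in turn. It then chose between 48 genes, without E12 replicate 3, and 69 genes, without E16 replicate 3. Of the 61 members, 29 were chosen in all 9 of these repeats, 14 were lost in 1 repeat and 18 in 2 or more. The largest number lost at once was 16, without E12 replicate 3. A loss most often came from the E12 to E8 limit, in 40 of 63 cases, and the fold limit was missed in 19. The flat course from E8 to E12 was thus the condition most often lost.

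Each repeat also gave the values of 1 library that its choice had not used, set here against means of the other libraries, which it had used. The ratios are therefore independent of the choice on 1 side only, and are given without a test. Of the genes chosen without E16 replicate 1, 2 or 3, the left-out library stood at least 4-fold above the larger earlier mean for 50 of 60, 51 of 55 and 38 of 69. It stood at least 2-fold above for 60 of 60, 55 of 55 and 68 of 69. Of the 14134 filtered genes with reads in every library, 1.44%, 1.67% and 1.13% stood at least 4-fold above in these libraries. The shares of these genes at least 2-fold above were 5.75%, 6.30% and 4.87%. The median folds in the left-out libraries were 5.46, 6.45 and 4.32.

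Turned to the early stages, the E16 mean was set against the left-out E8 or E12 library. It was at least 2-fold higher for all genes chosen in 5 of these 6 repeats, and for 10.6% to 19.1% of the 14134 genes over the 6. The exception was the repeat without E8 replicate 2, where this held for 59 of 62 genes and the lowest ratio was 1.01. That gene, which is not among the 61, was as high in E8 replicate 2 as at E16. In the left-out libraries the ratio thus fell short of 4 for some genes in every repeat, and short of 2 for 3 genes in E8 replicate 2 and for 1 gene in E16 replicate 3. For the early libraries the choice had used the E16 mean, so the gap to the shares of all genes is partly set by it. Only the fold was read in the left-out libraries, and whether they also kept the E12 to E8 limit was not counted.

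**Figure D5:**
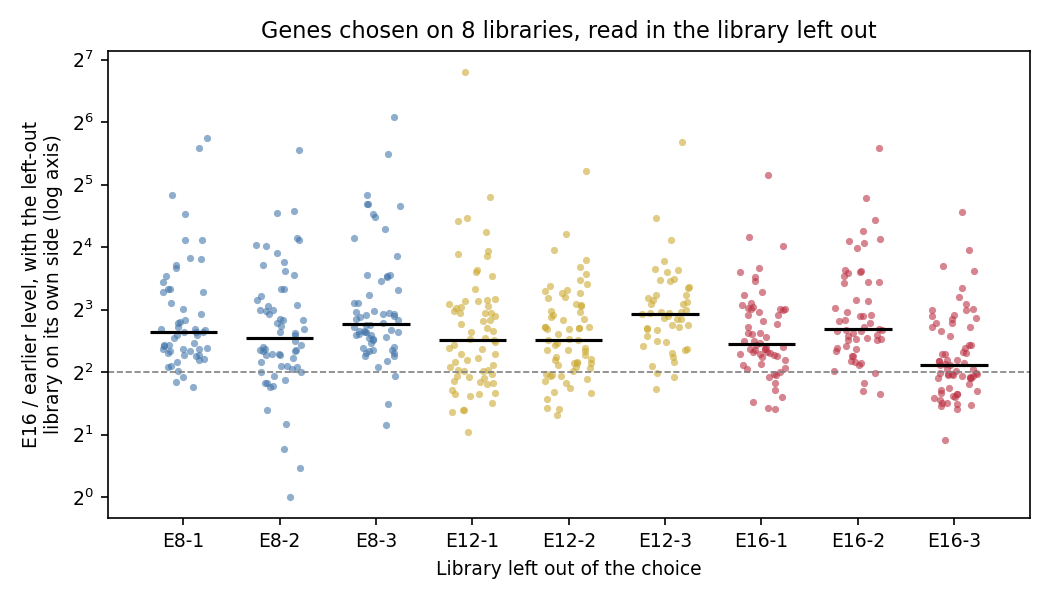
Ratio of E16 to earlier level, on a log axis, for the genes chosen without the library on the horizontal axis; for E16 libraries it is the left-out library over the larger E8 or E12 mean, and for E8 and E12 libraries the E16 mean over the left-out library. Points are genes, bars are medians and the dashed line marks 4-fold. With E16-3 left out 38 of 69 genes reach 4-fold, and with E8-2 left out the lowest ratio is 1.01.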

How the data were processed

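The table the authors deposited holds raw counts for each Ensembl gene ID in 9 libraries, with no normalization. Per the submitters' processing notes, FastQC 0.11.9, cutadapt 3.1, Trim Galore, HISAT2 2.2.1, HTSeq 0.13.5, DESeq2 and the build GRCg6a were used. The annotation release and the strand setting are not given in the sources used here. How reads were counted for genes that overlap, run antisense or are close copies is therefore not known here. The 5 rows of reads assigned to no gene, among them 13.7% to 20.0% of reads (stage means) outside annotated features, were kept out of library sizes and tests.

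Genes with at least 1 CPM in 3 or more libraries were kept, TMM factors were computed with edgeR 4.0.16 in R 4.3.3, and CPM was averaged per stage. Background shares come from edgeR's quasi-likelihood test on a model of 3 stage means over all 9 libraries (robust, filterByExpr by stage, 15506 genes, Benjamini-Hochberg adjusted p under 0.05). P-values set a difference of stage means against the spread between pools of embryos.

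The members, the lists and the rule for naming genes (the 2 members with the highest E16 means, if no symbols could be matched) were chosen with earlier results of these data known. Members given by rank were chosen after their values were seen. Lists of marker and pathway genes needed symbols and were not used. Alternatives were other scalings, filters and limits, DESeq2 1.42.0, a replicate block, a covariate and each library left out.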

Additional observations from a re-analysis of the deposited data

How the results depend on the processing

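The number of members stayed within 1.5 times of 61 under other scalings, filters, level limits and stage medians, but followed the limits closely. It was 113 with a fold limit of 3, 26 with a fold limit of 6 and 36 with a stricter E12 to E8 limit, by construction. With each library left out in turn it ranged from 48 to 69, and 45 to 58 of the 61 remained. With total counts only 61 genes were chosen, of which 47 were among the 61, and with stage medians 65, of which 45 were. Each of the 61 stayed at least 3-fold higher at E16 under TMM, DESeq2 size factors and total counts, the lowest fold being 3.70. The median ratio of the highest to the lowest E16 library was 1.51, against 1.48 with DESeq2 size factors and 1.55 with total counts, both chosen after seeing the data.

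Of the background calls, the genes higher at E16 than at E12 numbered 4167, against 1192 when the percentage of reads lying outside annotated features was a covariate and 2148 when a log2 difference of 1 or more was required. That percentage was 11.03% to 16.6% in the E12 libraries and 18.3% to 20.4% in the E8 and E16 libraries. The covariate and the E12 stage therefore cannot be fully told apart, and the cause of the drop was not tested. Genes higher at E16 than at E8 numbered 3547, against 3935 with the covariate and 1922 at that log2 difference. Leaving out each library gave 3441 to 4714 and 3063 to 4453 genes. With the replicate number as a block the counts were 4134 and 3511. The labels give same-numbered libraries only a number in common. Their deviations from the stage means correlated at -0.12 to 0.17, over 0.1 in 3 of 9 pairs. Pairs with different numbers correlated at -0.30 to 0.21. Of the 9 libraries, 0 correlated best with their own number at both other stages. These correlations cannot show whether same-numbered libraries shared a batch. The planned counts over gene lists were not run because the IDs have no symbols here.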
